A study of Mus musculus with 128 samples.

Results

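The last interval of an ageing series was examined in gastrocnemius muscle, the large fast calf muscle, which the labels call Muscle. The 4 libraries of mice aged 30 months were set against the 4 libraries of mice aged 24 months, 8 samples of the 128 in the series, and were chosen by tissue and age alone. All mice were male wild-type C57BL/6J with no treatment. The series holds 8 tissues at 6, 15, 24 and 30 months, and its design text asks how the transcriptome of each differs with age. The labels do not say whether the libraries of an age came from separate mice, so p-values measure the spread between these samples. Whole tissue was pulverised, so that fewer cells of a type and less RNA per cell cannot be told apart in any result here.

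Gastrocnemius is made mostly of fast glycolytic fibres. In aged mouse muscle, fibres that have lost their motor nerve switch on embryonic acetylcholine receptor subunits, embryonic myosin and the calcium pump inhibitor sarcolipin. Loss of muscle mass runs through the ubiquitin ligases atrogin-1 (Fbxo32) and MuRF1 (Trim63), which mark proteins for the proteasome, and through autophagy, both under the control of FoxO factors and glucocorticoids.

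The 30-month libraries held 17.6 to 19.4 M reads and the 24-month libraries 16.1 to 21.2 M reads. The 11 defining markers of skeletal muscle (Acta1, Ckm, Ttn and others) were all tested, with summed levels of 1755210 to 2050967 normalised reads at 30 months and 2035897 to 2131292 at 24 months. Values are reads divided by a size factor per library, called normalised reads below. Changes are log2 fold changes of (value + 1), 30 months minus 24 months, ± SE, with 4 libraries an age. Adjusted p-values come from limma-trend with Benjamini-Hochberg adjustment over 14561 genes, and 0.05 was the threshold.

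A single library stood apart. The median rank correlation of 30-month replicate 3 with the other Muscle libraries was 0.971, against at most 0.989 for any library and 0.983 for the next lowest at 30 months. In 6.34% of the genes tested it lay far from the other 3 libraries of its age, against 0.632% to 0.831% for the other 30-month libraries and 1.06% to 1.85% for the 24-month libraries. The share of reads from the mitochondrial genome was 13.6% in it, against 15.8% to 16.6% in the other 30-month libraries and 16.8% to 17.5% at 24 months. The 24-month replicate 4 was the highest of its age in that count, and its values for genes of denervated muscle resembled those at 30 months. Results that rest on either library are given with and without it.

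**Figure D1:**
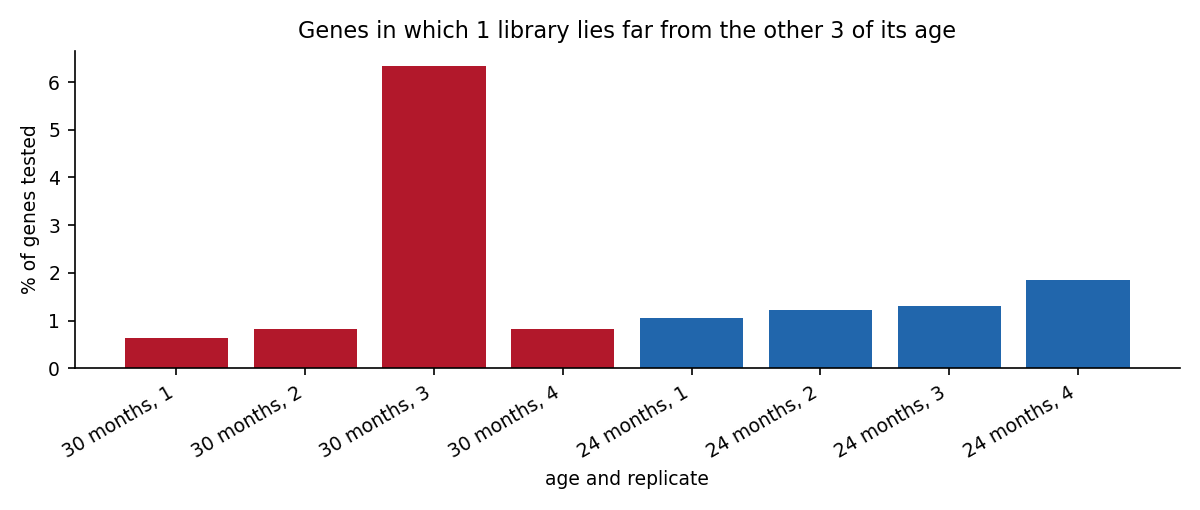
Bars give, for each Muscle library at 30 months (left) and 24 months (right), the percentage of 14561 tested genes in which that library lies far from the other 3 of its age by Dixon's criterion on the log2 scale. The bar of 30-month replicate 3 reaches 6.34%, and the other 7 lie between 0.632% and 1.85%.

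No gene passed the threshold with all libraries. The smallest adjusted p of limma-trend was 0.109, so 0.0% of 14561 genes were called, while 1902 genes (13.1%) had an unadjusted p under 0.05, of which 870 were higher and 1032 lower at 30 months. edgeR with TMM called 0 as well, limma-voom with quality weights 5 (0.0343%), and DESeq2 called 188 of the 4396 genes to which it gave an adjusted p (4.28%), 121 higher (2.75%) and 67 lower (1.52%). The 4 libraries of one age lay entirely above the 4 of the other in 474 genes that were higher (3.26%) and 551 that were lower (3.78%). Of all tested genes 93.4% had a log2 fold change within 0.5 of 0, and the median was -0.0016.

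Leaving out 30-month replicate 3 gave 10 calls (0.0687%), 2 higher (0.0137%) and 8 lower (0.0549%), and edgeR without that library called the same 10. Rpl41, of the ribosome, was among the higher genes. The lower ones were Amd1 and Smox (polyamine enzymes), Gdf11 (a secreted relative of myostatin), Ostn (musclin, a peptide secreted by muscle), Map2k6 (a kinase that activates p38), Fhod3 (a formin of the sarcomere), Col24a1 (a fibrillar collagen) and the uncharacterised 5031439G07Rik. Leaving out 24-month replicate 4 gave 11 calls (0.0755%), 8 higher (0.0549%) and 3 lower (0.0206%). The 8 were Sln, Chrna1, Chrnb1 and Gadd45a of denervated muscle, with Hpgd, Car3, Aif1l and Rpl41, and the 3 lower ones Hipk2, Sema3a and Zfp467. Rpl41 is the gene that both sets share. These genes were chosen after their values were seen, and apart from Rpl41 each set was called without 1 of the libraries but not without the other.

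The genes with the smallest p whose libraries did not overlap are described next, from the 8 in each direction, and none of the 16 passed the threshold with all 8 libraries. Rpl41, a protein of the large ribosomal subunit, had 3466, 3509, 3590 and 3570 normalised reads at 30 months, against 3023, 2725, 2848 and 3072 at 24 months. Its change was 0.28 ± 0.05 (adjusted p = 0.109), and its 30-month libraries, replicate 3 included, lay close together above all 24-month libraries. Without 30-month replicate 3 the change was 0.27 (adjusted p = 0.0477) and without 24-month replicate 4 it was 0.30 (adjusted p = 0.0327). Hpgd, the enzyme that inactivates prostaglandin E, had 156, 202, 238 and 203 normalised reads at 30 months, against 85.3, 94.9, 63.9 and 140 at 24 months. Its change of 1.09 ± 0.20 (adjusted p = 0.109) was the largest of the 8 higher genes, and the 24-month value nearest to the older libraries was that of replicate 4. Without that replicate the change was 1.29 (adjusted p = 0.0114).

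Other higher genes were Rplp0 and Rps7 of the ribosome, described below with Chrnb1, and Cd82 and Snrpg. Cd82, a tetraspanin of the cell surface, averaged 322 ± 31.8 normalised reads at 30 months and 239 ± 21.7 at 24 months (SD, n = 4 each), with adjusted p = 0.134 by limma-trend. Snrpg, a core protein of the spliceosome, averaged 160 ± 8.65 at 30 months and 116 ± 5.39 at 24 months, also with adjusted p = 0.134 by limma-trend. Both kept a change over 0.40 without 30-month replicate 3, at 0.42 for Cd82 and 0.43 for Snrpg.

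Among the lower genes, Zfp467, a zinc finger protein, had 242, 226, 193 and 244 normalised reads at 30 months, against 352, 310, 342 and 287 at 24 months. Its change was -0.51 ± 0.09 (adjusted p = 0.109). Mettl21c, a methyltransferase found mainly in muscle, had 782, 740, 313 and 469 normalised reads at 30 months, against 1247, 1225, 1202 and 905 at 24 months. That was the largest change of the 8 at -1.07 ± 0.21 (adjusted p = 0.131), and it was -0.81 without 30-month replicate 3 (adjusted p = 0.0592). Its mean was 1873 at 6 months, 1531 at 15, 1145 at 24 and 576 at 30.

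Mlf1 averaged 1347 ± 190 normalised reads at 30 months and 2108 ± 158 at 24 months, a change of -0.65 ± 0.12. Bcl2, the inhibitor of apoptosis, had 133, 139, 127 and 151 normalised reads at 30 months, against 188, 184, 214 and 181 at 24 months, a change of -0.48 ± 0.09 (adjusted p = 0.131). Nudt4, a phosphohydrolase of inositol pyrophosphates, averaged 2416 ± 283 at 30 months and 3130 ± 129 at 24 months. Fhod3 averaged 653 ± 101 at 30 months and 883 ± 30.8 at 24 months. Smtnl2, a smoothelin-like protein, averaged 4015 ± 687 at 30 months and 5596 ± 513 at 24 months, and Bmp5, a secreted growth factor, 87.5 ± 9.32 at 30 months and 129 ± 13.9 at 24 months. The adjusted p of these genes by limma-trend lay between 0.109 and 0.134.

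**Figure D2:**
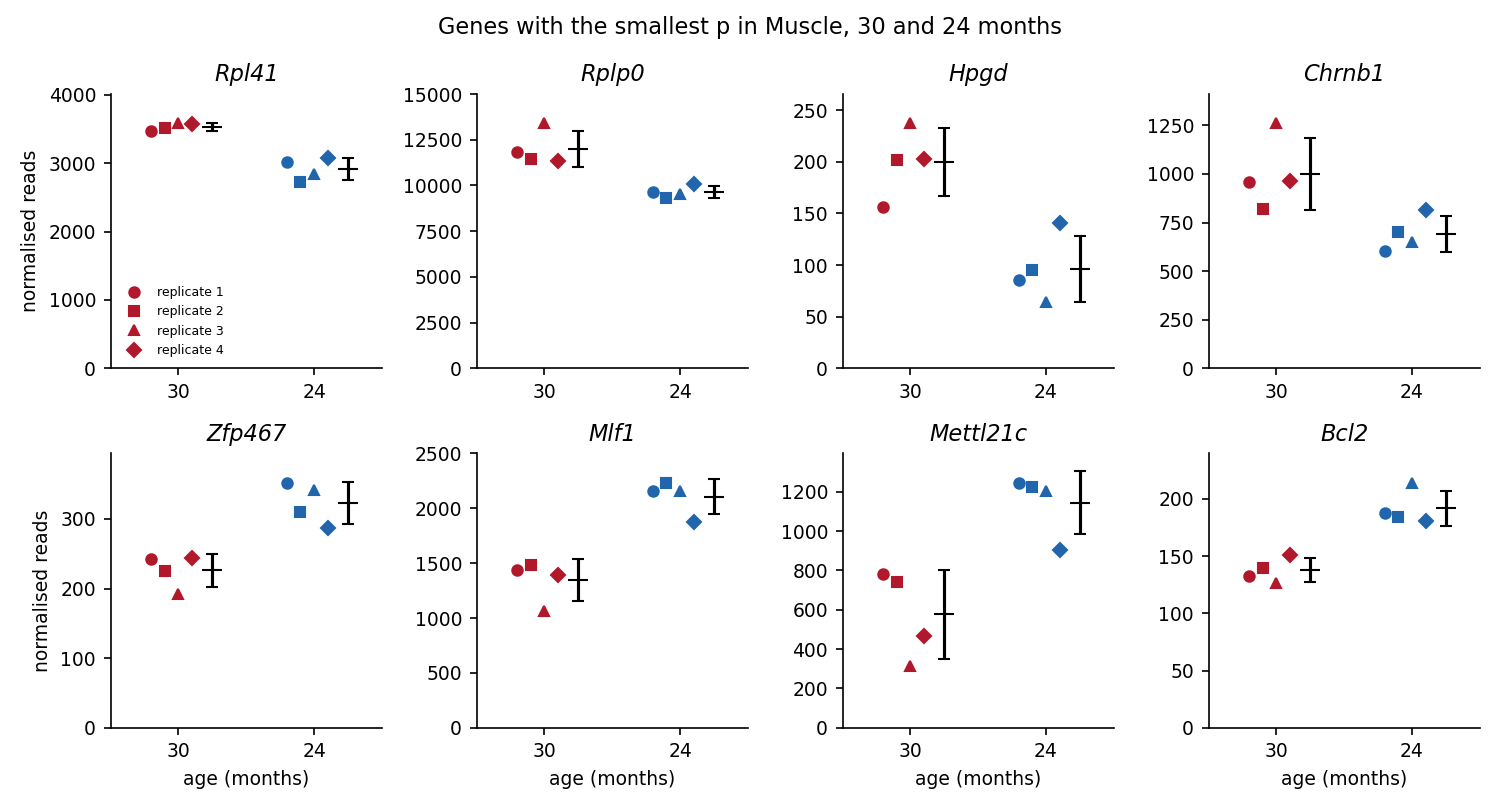
Normalised reads of 8 genes with the smallest p in each Muscle library, with 30 months left of 24 months. The y axes start at 0, the 4 marker shapes are the replicates, and the black bars give mean ± SD (n = 4). In each panel the 4 libraries of one age lie entirely above the 4 of the other.

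Genes of the cytosolic ribosome, the largest of the 44 lists, had the most members with separated libraries. The lists were chosen with earlier results of these data known. Of 79 tested genes for ribosomal proteins, 0 passed the threshold of limma-trend, 77 were higher with an unadjusted p under 0.05 and 0 were lower, against 5.97% and 7.09% of all genes. In 71 of the 79 every 30-month library lay above every 24-month library, against 3.26% of all genes. DESeq2 called 49 of the 79, all higher, against 2.75% of all genes to which it gave an adjusted p. The median change was 0.26, with members between 0.13 and 0.41, beside -0.0016 over all genes, and it was 0.19 without 30-month replicate 3 and 0.26 without 24-month replicate 4. In the single 30-month libraries the median over the 79 genes, relative to the 24-month mean of each gene, was 0.26, 0.13, 0.46 and 0.18, and in the 24-month libraries it was 0.04, -0.01, -0.02 and -0.0028. Replicate 3 was the highest, and the other 3 lay above all 24-month libraries too. Ribosomal protein genes have many processed copies in the mouse genome and can exchange reads with them.

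Rplp0, of the ribosomal stalk, had 11812, 11440, 13423 and 11321 normalised reads at 30 months, against 9655, 9295, 9559 and 10061 at 24 months. Its change was 0.31 ± 0.06 (adjusted p = 0.127), and 0.26 without 30-month replicate 3 (adjusted p = 0.0540). Rps7 averaged 3915 ± 409 at 30 months and 3142 ± 63.8 at 24 months. In the first interval, 15 against 6 months, the median of the 79 was -0.0094, and 2 of them had separated libraries on the higher side, against 4.57% of all genes. In Heart, 30 against 24 months, the median was 0.03, and -0.02 without its 24-month replicate 4, which stood apart there.

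Subunits of the constitutive proteasome lay on the same side. All 31 tested had a positive change, 23 with an unadjusted p under 0.05, against 5.97% of all genes, and 15 had separated libraries, against 3.26%. The median was 0.22 with all libraries and 0.13 without 30-month replicate 3, without which 15 of them were separated, against 4.46% of all genes. By library the median was 0.18, 0.05, 0.52 and 0.15 at 30 months and -0.02, -0.01, -0.0030 and 0.03 at 24 months, so replicate 2 lay just above the younger group and replicate 3 far above it. Psmb4 had 1625, 1411, 2016 and 1565 normalised reads at 30 months, against 1321, 1257, 1312 and 1311 at 24 months, a change of 0.33 ± 0.08 (adjusted p = 0.146). Psmb5, which carries the chymotrypsin-like site, averaged 1467 ± 90.4 at 30 months and 1248 ± 50.2 at 24 months. Psmb3 averaged 1516 ± 234 at 30 months and 1216 ± 32.1 at 24 months.

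Of 25 autophagy genes, 6 were higher and 2 lower with an unadjusted p under 0.05, against 5.97% and 7.09% of all genes. Of them 5 were separated on the higher and 1 on the lower side, against 3.26% and 3.78%, so the lower side was near the share over all genes. Map1lc3a, an LC3 protein that coats the autophagosome, had 2290, 2139, 3224 and 2181 normalised reads at 30 months, against 1688, 1447, 1642 and 1920 at 24 months (0.54 ± 0.12, adjusted p = 0.146). Gabarap, of the same family, averaged 2411 ± 316 at 30 months and 2026 ± 51.3 at 24 months, a change of 0.24, and 0.15 without 30-month replicate 3. Ctsl, a lysosomal cathepsin, had 1865, 1870, 3961 and 1864 at 30 months, against 1604, 1645, 1582 and 1707 at 24 months. The 3 libraries other than replicate 3 stood near 1870, and the change was 0.46 with it and 0.19 without it. The median over the list was 0.16, and 0.04 without 30-month replicate 3.

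Enzymes of glycolysis and glycogen breakdown lay on the other side. Of 23 tested, 15 were lower and 1 higher with an unadjusted p under 0.05, against 7.09% and 5.97% of all genes, and 12 were separated on the lower side, against 3.78%. DESeq2 called 4 of them, all lower, against 1.52% of all genes to which it gave an adjusted p. The median was -0.30, and -0.17 without 30-month replicate 3, where 12 were separated, against 4.77% of all genes. By library it was -0.17, -0.20, -0.68 and -0.13 at 30 months and -0.0028, -0.03, 0.08 and -0.05 at 24 months. Phka1, the muscle regulatory subunit of phosphorylase kinase, had 9960, 8208, 6004 and 9720 normalised reads at 30 months, against 11201, 11651, 12556 and 11137 at 24 months (-0.48 ± 0.12, adjusted p = 0.146). Pfkm, muscle phosphofructokinase, had 38933, 38024, 26003 and 39128 at 30 months, against 48026, 45317, 50273 and 42315 at 24 months, with the lowest value in replicate 3 (-0.41 ± 0.11, and -0.26 without it). Pygm, muscle glycogen phosphorylase, averaged 82758 ± 8778 at 30 months and 101063 ± 4125 at 24 months. In the first interval the list's median was 0.05.

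All 13 messenger RNAs of the mitochondrial genome had a negative change, 7 with an unadjusted p under 0.05, against 7.09% of all genes, and 6 with separated libraries, against 3.78%. They are cut from common transcripts and are not independent of each other. The median was -0.29, and -0.19 without 30-month replicate 3. By library, relative to the 24-month means, it was -0.26, -0.19, -0.49 and -0.13 at 30 months. At 6 months it was -0.12, -0.13, -0.17 and -0.14, and at 15 months 0.11, -0.03, 0.13 and -0.12. mt-Nd2, a subunit of complex I, averaged 199503 ± 24780 normalised reads at 30 months and 252087 ± 16847 at 24 months (-0.34 ± 0.11, adjusted p = 0.231). The median of the 13 in Heart over the same interval was -0.33, and -0.23 without 24-month replicate 4 of Heart. The nuclear subunits of complexes I and II had a median of -0.0053 over 39 genes, and those of complexes III to V 0.03 over 36. In the second set 2 of 36 were separated on the higher side, against 3.26% of all genes. Cox6a2, the muscle form of a cytochrome oxidase subunit, was 1 of them, with 15660 ± 1359 at 30 months and 13648 ± 421 at 24 months.

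**Figure D3:**
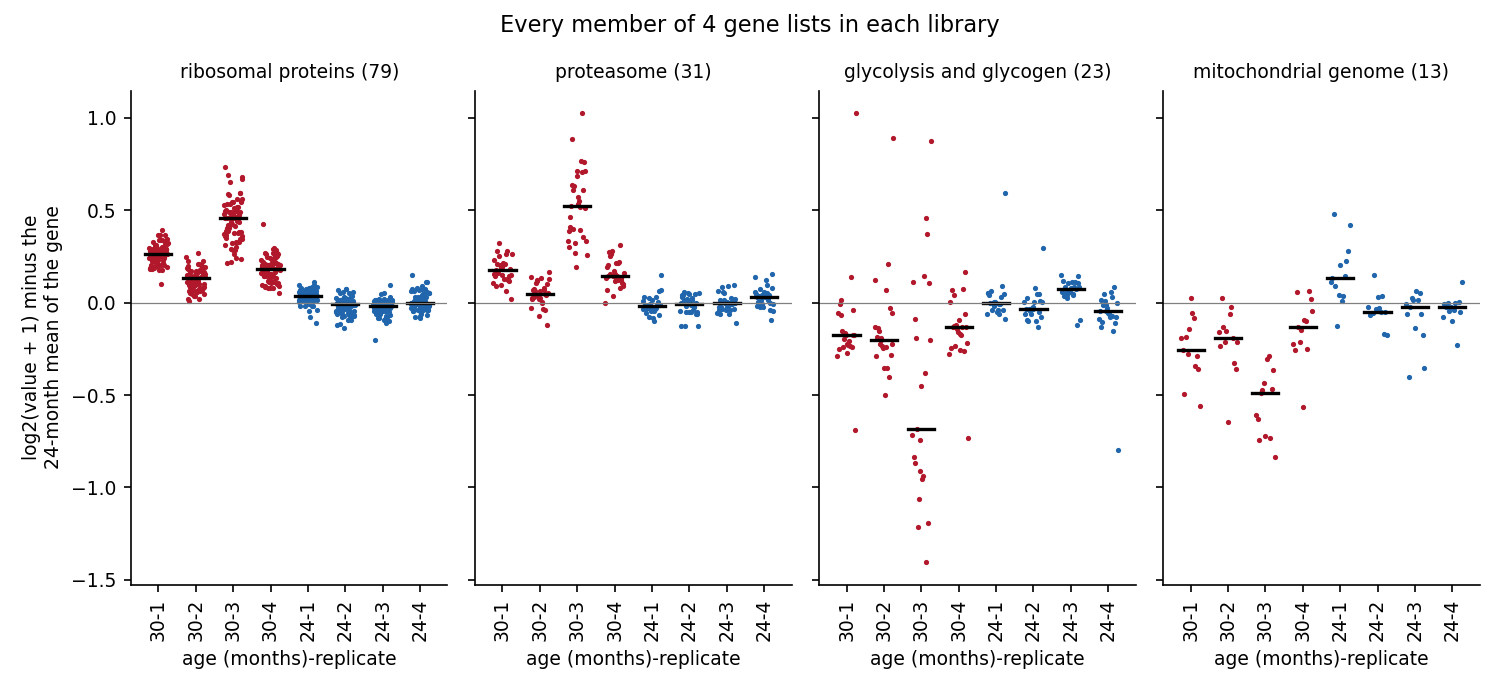
Each point is a gene of the list in 1 Muscle library, as log2(value + 1) minus the mean of that gene at 24 months, with 30 months left of 24 months, and black lines are the medians over the genes (numbers tested in brackets). For ribosomal proteins the 30-month medians are 0.26, 0.13, 0.46 and 0.18, and replicate 3 is the farthest from 0 in all 4 lists.

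Of 23 tested genes known from denervated muscle 0 passed the threshold, 18 had a positive change, and 9 were higher and 2 lower with an unadjusted p under 0.05, against 5.97% and 7.09% of all genes. Of them 2 were separated on the higher side, against 3.26%, and the median was 0.39. It was 0.30 without 30-month replicate 3 and 0.53 without 24-month replicate 4. The summed level of the list was 6818, 6861, 10545 and 7595 normalised reads at 30 months, against 4440, 5026, 4635 and 9250 at 24 months. The fourth 24-month library thus lay above 3 of the 30-month libraries.

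Chrnb1, the beta subunit of the muscle acetylcholine receptor, had 958, 821, 1263 and 963 normalised reads at 30 months, against 601, 700, 649 and 816 at 24 months. The groups were separated by a narrow gap, between 821 and 816, and the change was 0.52 ± 0.11 (adjusted p = 0.134), or 0.41 without 30-month replicate 3 and 0.61 without 24-month replicate 4 (adjusted p = 0.0471). Chrna1, the alpha subunit that binds acetylcholine, had 521, 504, 585 and 560 at 30 months, against 376, 345, 290 and 717 at 24 months. The older libraries lay close together, and replicate 4 of the younger group was above all of them. The change was 0.42 ± 0.19 (adjusted p = 0.362), and 0.69 without that replicate (adjusted p = 0.0204).

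The promoters of these subunits are shown because muscle-specific transcription of receptor genes is known to run through E-boxes, the sites bound by MyoD and myogenin. The sequences are the 250 bases before the RefSeq start, build GRCm38.p6, read 5′ to 3′ along the gene's strand, with each E-box (CANNTG, the same on both strands) in capitals. The files were made on GRCm39, so these positions are not theirs. Chrna1 lies on the minus strand at chr2:73580339-73580588 and Chrnb1 on the minus strand at chr11:69795938-69796187.
Chrna1: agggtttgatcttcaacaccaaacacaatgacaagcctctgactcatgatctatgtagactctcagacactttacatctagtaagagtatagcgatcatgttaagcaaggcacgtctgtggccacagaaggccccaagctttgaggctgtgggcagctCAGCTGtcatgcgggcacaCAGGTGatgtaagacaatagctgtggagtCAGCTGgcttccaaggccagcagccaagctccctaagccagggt
Chrnb1: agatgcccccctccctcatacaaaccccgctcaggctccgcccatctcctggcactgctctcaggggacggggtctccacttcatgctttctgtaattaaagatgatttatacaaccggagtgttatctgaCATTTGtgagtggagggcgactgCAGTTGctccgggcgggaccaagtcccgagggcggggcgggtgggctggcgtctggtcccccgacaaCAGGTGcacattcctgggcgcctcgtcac
Each holds 3 E-boxes in these bases. Of 32851 promoters of the same length in that source, 66.2% hold at least 1. The form CAGCTG, counted within CANNTG, is present 2 times in Chrna1 and in 13.001% of all promoters, and no motif of that form stands in this window of Chrnb1. A match is a description of the letters and not evidence of binding.

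Sln, sarcolipin, had 525, 490, 1198 and 582 normalised reads at 30 months, against 74.1, 85.0, 77.4 and 926 at 24 months. At the younger ages it lay between 8.85 and 49.2 in all 8 libraries. The change was 2.15 ± 0.64 (adjusted p = 0.217), and 3.03 without 24-month replicate 4 (adjusted p = 0.0114). Gadd45a, a stress gene switched on by denervation, had 644, 728, 1294 and 886 at 30 months, against 271, 416, 325 and 1173 at 24 months. Its change was 0.91 ± 0.32 (adjusted p = 0.269), and 1.36 without 24-month replicate 4 (adjusted p = 0.0115). For both genes 3 of the 24-month libraries lay below all 30-month libraries, and the fourth lay above 3 of them.

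Myh3, embryonic myosin heavy chain, had 315, 253, 353 and 139 normalised reads at 30 months, against 133, 105, 89.7 and 229 at 24 months (0.94 ± 0.30, adjusted p = 0.238). Cdkn1a, the cell cycle inhibitor p21, had 544, 544, 1797 and 705 at 30 months, against 275, 254, 261 and 875 at 24 months (1.14 ± 0.38, adjusted p = 0.254), and its change was 0.74 without 30-month replicate 3 and 1.57 without 24-month replicate 4. Runx1, a transcription factor of denervated fibres, had 128, 122, 189 and 171 at 30 months, against 93.9, 90.9, 79.6 and 195 at 24 months, a change of 0.48, and 0.76 without 24-month replicate 4. In all 3 the groups overlapped through 24-month replicate 4. Myog, myogenin, averaged 125 ± 66.3 at 30 months and 108 ± 88.7 at 24 months, and its change of 0.39 ± 0.41 became -0.0078 without 24-month replicate 1. Chrng, the embryonic receptor subunit, had 9.84, 10.9, 19.4 and 18.1 at 30 months, against 1.72, 11.9, 2.24 and 49.3 at 24 months. Its change was 0.79 ± 0.76 with limma-trend and -0.12 with edgeR, so no direction can be given.

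On the lower side, Fgfbp1, which carries fibroblast growth factors to the neuromuscular junction, averaged 109 ± 47.1 normalised reads at 30 months and 173 ± 33.5 at 24 months (-0.77 ± 0.25, adjusted p = 0.247), and -0.43 without 30-month replicate 3. Ache, acetylcholinesterase, had 509, 476, 284 and 474 at 30 months, against 573, 577, 567 and 548 at 24 months (-0.41 ± 0.13, adjusted p = 0.232), without overlap, and its change was -0.22 without 30-month replicate 3. The 15 tested genes of the neuromuscular junction had a median of -0.04. Of them 0 were higher and 1 lower with an unadjusted p under 0.05, near the 5.97% and 7.09% of all genes. Separated were 0 on the higher and 1 on the lower side, near the 3.26% and 3.78% of all genes.

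**Figure D4:**
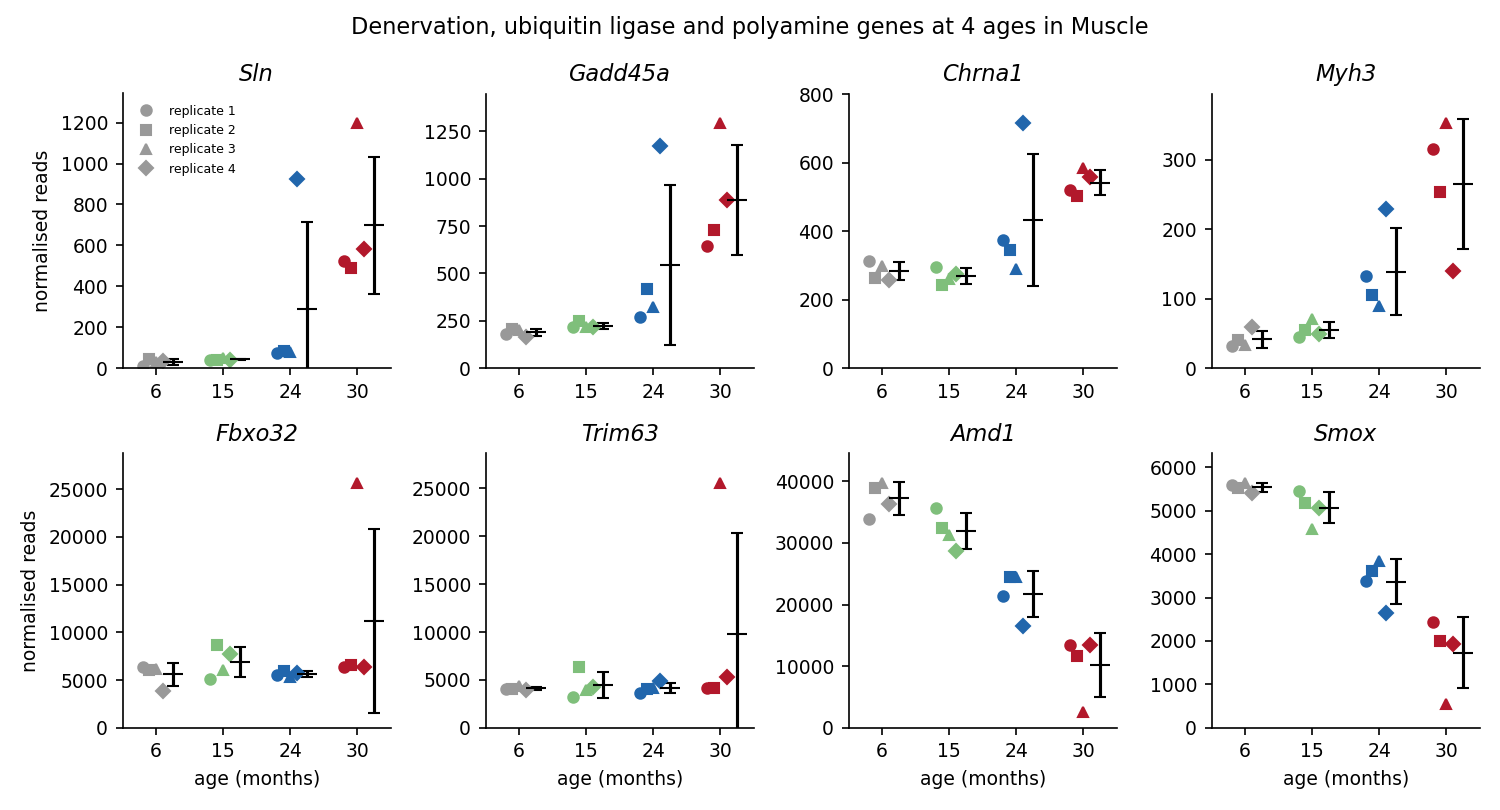
Normalised reads of 8 genes in every Muscle library at 6, 15, 24 and 30 months. Marker shapes are replicates 1 to 4 and black bars mean ± SD (n = 4), cut at 0. For Sln, Gadd45a and Chrna1 the fourth 24-month library lies near or above the 30-month libraries. For Fbxo32 and Trim63 the third 30-month library lies far above all others, at 25697 and 25610.

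The ubiquitin ligases of muscle loss were by far the highest in 1 library. Fbxo32 had 6340, 6570, 25697 and 6337 normalised reads at 30 months, against 5517, 5971, 5356 and 5714 at 24 months. Trim63 had 4207, 4193, 25610 and 5259 at 30 months, against 3657, 4058, 4107 and 4858 at 24 months. In both genes replicate 3 was far above every other Muscle library, while the other 30-month libraries lay much nearer to the younger ones. For Fbxo32 the groups did not overlap, with replicate 3 or without it, and for Trim63 they overlapped. The changes of 0.69 ± 0.34 for Fbxo32 and 0.75 ± 0.40 for Trim63 (adjusted p = 0.400 and 0.445) were 0.19 and 0.13 without it. Klf15, a glucocorticoid target, had 619, 645, 2117 and 914 at 30 months, against 543, 598, 636 and 594 at 24 months. Eif4ebp1, the repressor of translation that FoxO factors switch on, had 681, 636, 2904 and 941 at 30 months, against 604, 547, 658 and 638 at 24 months. Mt1, a metallothionein, had 249, 253, 936 and 449 at 30 months, against 213, 206, 255 and 268 at 24 months. The changes of 0.66 for Klf15, 0.77 for Eif4ebp1 and 0.79 for Mt1 were 0.27, 0.28 and 0.38 without replicate 3.

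Over 25 genes of atrophy and FoxO targets the median was 0.41, and 0.13 without 30-month replicate 3, and 7 were higher with an unadjusted p under 0.05, against 5.97% of all genes. Over 20 glucocorticoid targets, of which several are in both lists, it was 0.58, and 0.09 without that library, and 2 were higher with an unadjusted p under 0.05, a share near that over all genes. Both lists have medians far above 0 in 30-month replicate 3, at 1.505 and 1.91 relative to the 24-month means. The other 30-month libraries had 0.05, 0.04 and 0.29 for atrophy genes and -0.21, 0.03 and 0.64 for glucocorticoid targets. Eda2r, a receptor of the tumour necrosis factor family and a p53 target, had 1186, 986, 2520 and 1020 at 30 months, against 836, 891, 749 and 989 at 24 months, a change of 0.61, and 0.30 without replicate 3. Of the 21 tested p53 targets and cell cycle inhibitors 8 were higher and 1 lower with an unadjusted p under 0.05, against 5.97% and 7.09% of all genes, and 1 was separated on the higher and 2 on the lower side, against 3.26% and 3.78%.

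Polyamine enzymes lay on both sides. Polyamines are made from ornithine by Odc1 and from decarboxylated S-adenosylmethionine, which Amd1 supplies, and Smox oxidises spermine. Amd1 had 13430, 11641, 2567 and 13420 normalised reads at 30 months, against 21404, 24484, 24497 and 16463 at 24 months. Replicate 3 was the lowest by far, and the other 3 older libraries also lay below all 24-month libraries. The change was -1.32 ± 0.36 (adjusted p = 0.175), and -0.74 without replicate 3 (adjusted p = 0.0443). Amd2, a near copy of Amd1 that can take its reads, averaged 107 ± 63.1 at 30 months and 253 ± 63.2 at 24 months, a change of -1.53, and -0.91 without replicate 3.

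Smox had 2441, 1996, 556 and 1940 normalised reads at 30 months, against 3381, 3601, 3842 and 2638 at 24 months, a change of -1.14 ± 0.31 (adjusted p = 0.166). Without 30-month replicate 3 it was -0.66 (adjusted p = 0.0443). The mean of Amd1 was 37219 at 6 months, 31976 at 15, 21712 at 24 and 10264 at 30, and that of Smox 5539, 5068, 3365 and 1733 at those ages. On the other side, Srm, spermidine synthase, had 123, 118, 195 and 150 at 30 months, against 98.2, 110, 105 and 108 at 24 months, without overlap (0.45 ± 0.14, adjusted p = 0.231). Odc1 had 2977, 2586, 4637 and 3041 at 30 months, against 2628, 2605, 2756 and 2053 at 24 months, with overlap, a change of 0.37, and 0.20 without replicate 3. Of 12 tested genes, 4 were higher and 4 lower with an unadjusted p under 0.05, against 5.97% and 7.09% of all genes, and 2 and 3 were separated, against 3.26% and 3.78%.

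The promoters of Amd1 and Smox, polyamine genes called without 30-month replicate 3, are shown under the same conventions. Amd1 lies on the minus strand at chr10:40302189-40302438 and Smox on the plus strand at chr2:131491612-131491861.
Amd1: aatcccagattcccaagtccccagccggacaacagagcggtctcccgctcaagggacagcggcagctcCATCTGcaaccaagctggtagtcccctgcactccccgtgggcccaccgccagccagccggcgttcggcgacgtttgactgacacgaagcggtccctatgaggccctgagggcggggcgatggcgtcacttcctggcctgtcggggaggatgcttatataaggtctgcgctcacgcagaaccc
Smox: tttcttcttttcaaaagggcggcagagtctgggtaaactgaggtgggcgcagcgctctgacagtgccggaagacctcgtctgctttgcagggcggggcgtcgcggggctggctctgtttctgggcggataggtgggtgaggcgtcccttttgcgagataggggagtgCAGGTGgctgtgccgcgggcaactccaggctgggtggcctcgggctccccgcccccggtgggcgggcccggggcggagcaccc
Each holds 1 E-box, and neither holds one of the form CAGCTG in these bases. They are 64.4% and 68.0% G and C, and the Chrna1 and Chrnb1 windows are 50.8% and 60.4%.

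Among regulators of growth, Gdf11 had 251, 218, 48.4 and 204 normalised reads at 30 months, against 409, 405, 378 and 291 at 24 months (-1.26 ± 0.35, adjusted p = 0.175). Without 30-month replicate 3 it was -0.72 (adjusted p = 0.0477). Ostn, chosen after its values were seen, had 694, 841, 154 and 574 at 30 months, against 1111, 1214, 1124 and 1202 at 24 months, a change of -1.28, and -0.74 without replicate 3. In both genes the groups were separated with replicate 3 and without it. Igfbp5, a binding protein of insulin-like growth factors, had 10815, 10699, 1921 and 9532 at 30 months, against 10790, 11751, 11774 and 13482 at 24 months, and its change of -0.81 was -0.21 without replicate 3. Igfbp3, of the same family, averaged 694 ± 332 at 30 months and 411 ± 12.8 at 24 months (0.65 ± 0.20, adjusted p = 0.231), and 0.36 without replicate 3. Akt1, a kinase below the insulin receptor, had 1270, 1228, 1882 and 1265 at 30 months, against 1066, 1017, 1054 and 1143 at 24 months (0.38 ± 0.11, adjusted p = 0.190), and 0.23 without replicate 3. Myod1, a myogenic factor, averaged 332 ± 73.2 at 30 months and 454 ± 69.7 at 24 months.

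Myosin genes of the fibre types overlapped between the ages. Myh4, the myosin of type IIB fibres, had 603352, 544944, 564509 and 684084 normalised reads at 30 months, against 718649, 740212, 734849 and 681073 at 24 months (-0.27 ± 0.10, adjusted p = 0.301). Replicate 4 of the older group lay just above replicate 4 of the younger. Myh1, the myosin of type IIX fibres, had 55041, 63743, 87361 and 62684 at 30 months, against 52715, 52143, 61637 and 44322 at 24 months (0.34 ± 0.12, adjusted p = 0.285), and 0.21 without 30-month replicate 3. Pvalb, the calcium buffer of fast fibres, had 101276, 90560, 44023 and 103285 at 30 months, against 108923, 115618, 118284 and 108676 at 24 months, and its change of -0.49 was -0.20 without replicate 3. Of 15 fast fibre genes 6 were lower and 1 higher with an unadjusted p under 0.05, against 7.09% and 5.97% of all genes, with a median of -0.17, and -0.11 without 30-month replicate 3. Of them 3 were separated on the lower and 0 on the higher side, against 3.78% and 3.26% of all genes. Without 30-month replicate 3 the lower count was also 3, against 4.77% of all genes.

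Of 17 slow fibre genes 16 had a positive change with a median of 0.30. Only 1 was higher with an unadjusted p under 0.05, a share near the 5.97% of all genes. On either side 0 were separated, against 3.26% (higher) and 3.78% (lower). That gene was Myoz2, a protein of the Z-disc, with 2839, 3183, 4561 and 1691 normalised reads at 30 months, against 1895, 1517, 1709 and 2273 at 24 months. Myh7, the slow myosin, had 6563, 6684, 5648 and 2895 at 30 months, against 5094, 4024, 2775 and 4542 at 24 months (0.37 ± 0.42, adjusted p = 0.748). By library the medians of the list were 0.49, 0.61, 0.42 and -0.23 at 30 months, so replicate 4 lay below all 24-month libraries, which had 0.19, -0.08, -0.22 and 0.15. Of 20 genes of excitation-contraction coupling 6 were lower and 2 higher with an unadjusted p under 0.05, against 7.09% and 5.97% of all genes. Separated were 3 on the lower and 1 on the higher side, against 3.78% and 3.26%. Among genes of calcium release, Srl, sarcalumenin, had 16948, 17202, 13192 and 17270 at 30 months, against 20239, 19922, 19867 and 19077 at 24 months (-0.30 ± 0.08, adjusted p = 0.163). Cacng1, the gamma subunit of the muscle calcium channel, averaged 6985 ± 1599 at 30 months and 5126 ± 287 at 24 months (0.42 ± 0.11, adjusted p = 0.166), and 0.28 without 30-month replicate 3. Ppargc1a, the regulator of mitochondrial genes, averaged 777 ± 193 at 30 months and 780 ± 133 at 24 months.

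Collagen genes had negative changes, with the lowest values in 30-month replicate 3. All 21 collagen genes tested had a negative change, 14 with an unadjusted p under 0.05 (all lower, against 7.09% of all genes). But 0 were separated, against 3.78% of all genes on the lower side. The median was -0.59, and -0.33 without 30-month replicate 3. By library it was -0.36, -0.01, -1.27 and -0.60 at 30 months and 0.14, 0.09, 0.05 and -0.29 at 24 months, so the groups overlapped. Col1a1, a chain of type I collagen, had 716, 1013, 230 and 577 normalised reads at 30 months, against 1478, 1186, 1281 and 904 at 24 months (-1.10 ± 0.32, adjusted p = 0.213). Col3a1, of type III, had 1295, 2082, 323 and 991 at 30 months, against 2162, 2160, 1872 and 1329 at 24 months. Without replicate 3 the changes were -0.67 and -0.41. Col1a1 averaged 2713 at 6 months and 1034 at 15 months, and over that first interval 15 of the 21 collagen genes were separated on the lower side, against 4.37% of all genes.

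Tendon genes gave the most negative median of the lists shown, -0.91 over 11 genes and -0.58 without 30-month replicate 3. By library, relative to the 24-month means, the median was -0.54, -0.62, -1.58 and -0.67 at 30 months. It was -0.53, 0.10, -0.38 and -0.49 at 15 months and -0.53, -0.08, -0.59 and 1.005 at 6 months. Most libraries of the 2 youngest ages thus also lay below the 24-month mean. Of the 11 genes 8 were lower at 30 than at 24 months with an unadjusted p under 0.05, against 7.09% of all genes. Of them 3 were separated (Kera, Thbs4 and Comp), against 3.78%. Thbs4, a matrix protein of tendon and its junction with muscle, had 2407, 2122, 2054 and 2041 normalised reads at 30 months, against 3603, 3252, 3413 and 2810 at 24 months (-0.60 ± 0.21, adjusted p = 0.270). In this gene replicate 3 lay among the others. Kera, keratocan, had 145, 154, 24.7 and 162 at 30 months, against 260, 268, 364 and 199 at 24 months (-1.44 ± 0.44, adjusted p = 0.222), and its change was -0.79 without replicate 3. The summed level of the tendon list was 6229 to 8338 at 30 months and 8962 to 14264 at 24 months, and how much tendon each sample held was not tested.

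Of 23 genes of fibro-adipogenic cells and fibroblasts 15 were lower and 1 higher with an unadjusted p under 0.05, against 7.09% and 5.97% of all genes. Of them 1 was separated on the lower side, against 3.78%, and the median was -0.43, and -0.21 without 30-month replicate 3. Their summed level was 41457 to 51893 at 30 months and 49503 to 59852 at 24 months, and the part of these cells in the collagen values was not tested. Pi16, a marker of fibroblast progenitors, had 468, 700, 166 and 505 normalised reads at 30 months, against 729, 834, 774 and 698 at 24 months, a change of -0.89, and -0.46 without replicate 3. Thy1 averaged 101 ± 42.8 at 30 months and 163 ± 12.7 at 24 months, without overlap (-0.80 ± 0.25, adjusted p = 0.231), and -0.51 without 30-month replicate 3. Apod, a lipid carrier, was the member that was higher with an unadjusted p under 0.05, with 4920, 3250, 7199 and 4628 at 30 months, against 2798, 2713, 2248 and 4173 at 24 months (0.73 ± 0.21, adjusted p = 0.194).

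**Figure D5:**
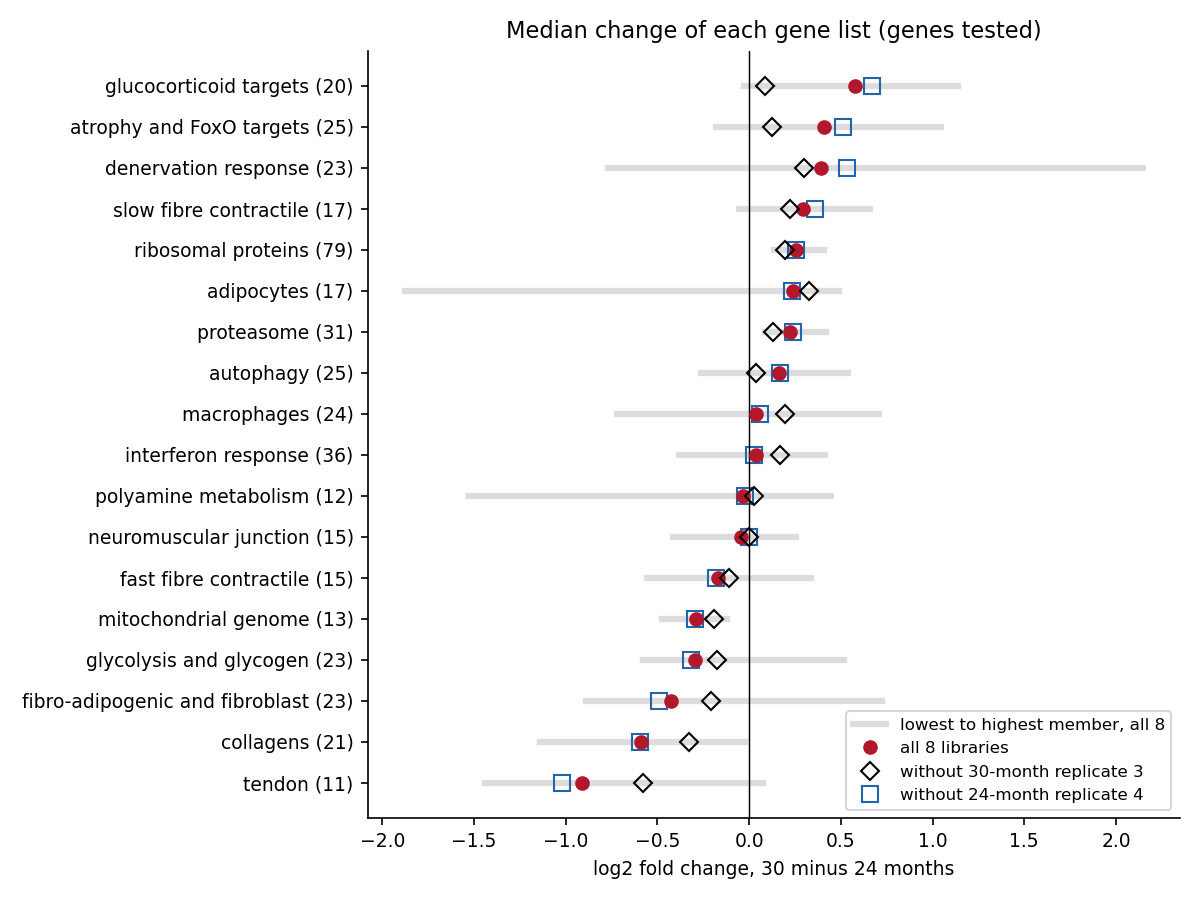
Median log2 fold change of each gene list (number tested in brackets), 30 minus 24 months in Muscle, with all 8 libraries (red), without 30-month replicate 3 (open diamonds) and without 24-month replicate 4 (open squares), and grey bars from the lowest to the highest member. The median of glucocorticoid targets is 0.58 with all libraries and 0.09 without 30-month replicate 3, and that of ribosomal proteins is 0.26 and 0.19.

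Medians of several lists of immune genes shifted without 30-month replicate 3. Of 36 interferon genes 0 had an unadjusted p under 0.05 (limma-trend), against 13.1% of all genes. DESeq2 gave an adjusted p to only 5 of the 36 and called 0, against 4.28% of all genes to which it gave one. The median was 0.04, or 0.17 without 30-month replicate 3, with 20 and 28 of the 36 positive. Their summed level was 8209, 11179, 7556 and 9388 normalised reads at 30 months, against 17676, 8575, 4877 and 8774 at 24 months. By library their median, relative to the 24-month mean of each gene, was -0.13, 0.35, -0.47 and 0.21 at 30 months. At 24 months it was 0.68, -0.05, -0.64 and -0.01, a wider spread. Of 24 macrophage genes 4 were higher and 1 lower with an unadjusted p under 0.05, against 5.97% and 7.09% of all genes. On each side 1 was separated, near the 3.26% (higher) and 3.78% (lower) of all genes. The summed levels of the list were 7413 to 10729 at 30 months and 6929 to 9417 at 24 months. The median was 0.04 with all libraries, where 12 of the 24 were positive, and 0.20 without 30-month replicate 3, where 21 were. Without that library 19 of 21 antigen presentation genes were positive, against 8 with it, and the median of 10 plasma and B cell genes was 0.28, against -0.17 with it. Over all genes 49.6% were positive with all libraries. Of the antigen presentation genes 0 were higher and 1 lower with an unadjusted p under 0.05, against 5.97% and 7.09% of all genes. With or without 30-month replicate 3, 0 of them were separated. By library their median was 0.15, 0.21, -0.39 and 0.19 at 30 months. At 24 months it was 0.43, 0.10, -0.37 and -0.22, so the groups overlapped. Mpeg1, perforin-2, had 311, 286, 350 and 390 at 30 months, against 233, 284, 119 and 268 at 24 months (0.63 ± 0.21, adjusted p = 0.251), so its groups were separated by a narrow gap. Folr2, of resident macrophages, averaged 100.4 ± 39.2 at 30 months and 154 ± 15.4 at 24 months, a change of -0.72, and -0.36 without 30-month replicate 3. Nfkb2, a subunit of NF-κB, had 369, 346, 383 and 359 at 30 months, against 242, 279, 283 and 301 at 24 months (0.40 ± 0.09, adjusted p = 0.146), without overlap. C4b, a complement protein, averaged 953 ± 194 at 30 months and 887 ± 205 at 24 months, and Igkc, an immunoglobulin light chain, had 487, 403, 26.4 and 2149 at 30 months, against 196, 1414, 601 and 221 at 24 months, a change of -0.42, and 0.77 without 30-month replicate 3.

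Of 18 endothelial and 12 smooth muscle genes 0 had an unadjusted p under 0.05 in limma-trend, against 13.1% of all genes. DESeq2 gave an adjusted p to 12 and 8 of them and called 0, against 4.28% of all genes to which it gave one. Their summed levels were 15811 to 17314 at 30 months and 15317 to 18346 at 24 months for endothelium, and 18995 to 21747 at 30 months and 19678 to 21821 at 24 months for smooth muscle. Of 17 adipocyte genes 2 were higher and 1 lower with an unadjusted p under 0.05, near the 5.97% and 7.09% of all genes. The summed level of that list was 58861 to 64941 at 30 months and 42450 to 58791 at 24 months, most of it from Car3, which muscle fibres express too. Of the 21 genes of T and NK cells 1 was expressed enough to be tested.

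Whether a gene's change over this interval differed from that over the first, 15 against 6 months, was tested for all 14561 genes. The difference passed the threshold in 10 genes (0.0687%), all lower in the late than in the early interval, and edgeR called 8 of them. Bcl2 changed by -0.48 ± 0.09 late and 0.50 ± 0.09 early, a difference of -0.98 ± 0.13 (adjusted p = 0.0064), and its libraries had 133 to 166 normalised reads at 6 months, 195 to 236 at 15, 181 to 214 at 24 and 127 to 151 at 30. Jak2, a kinase of cytokine receptors, had 911 to 1000 at 6 months, 1129 to 1432 at 15, 815 to 901 at 24 and 584 to 724 at 30, a difference of -0.73 ± 0.11 (adjusted p = 0.0139). Jak1, its partner, gave -0.45 ± 0.08 (adjusted p = 0.0380), with 2304 to 2656 at 30 months and 2872 to 2956 at 24 months. The libraries of these 3 were separated in the late interval. Jak1 was not called by edgeR, and with a block for the replicate number neither Jak1 nor Jak2 was called. The other 7 were Banp, Diaph1, Gm8734, Hspa5, Ighg2c, Supt3 and Tmem132b, with early changes of 0.38 to 2.41 and late changes of -0.13 to 0.10. Over the intervals taken alone, limma-trend called 88 genes for 15 against 6 months (0.604%), 350 for 24 against 15 (2.4%), and 1904 for 30 against 6 (13.1%). The intervals 24 against 15 and 30 against 6 months each share libraries with the one described.

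In Heart, a tissue of another striated muscle, 24-month replicate 4 stood apart, with 7.65 M reads against 13.3 to 20.2 M reads in the other 15 libraries and a median rank correlation of 0.910 with them. Heart over the same interval had 0 of 14301 genes past the threshold of limma-trend and 1275 (8.92%) with an unadjusted p under 0.05. The change differed between Muscle and Heart in 0 of 13528 genes tested in both, with 1383 (10.2%) at an unadjusted p under 0.05, and edgeR called 0 too. The list medians in Heart were 0.30 for collagens, 0.25 for tendon genes and 0.16 for glycolysis, beside -0.59, -0.91 and -0.30 in Muscle. Without 24-month replicate 4 of Heart they were 0.32, 0.10 and 0.0071 there, and no single gene passed the test of the difference between the tissues. For Hpgd the change in Heart was -0.21, with an adjusted p of 0.214 (limma-trend) for the difference between the tissues.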

How the data were processed

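Total RNA was isolated with RNAiso Plus and libraries were built with the Illumina Stranded mRNA Prep kit, per the labels' protocols. The submitters' processing notes name GRCm39 and the programs FastQC, STAR, RSEM and DESeq2, without versions. The gene annotation and the counting strand are not given in the sources used here. For each tissue the authors deposited 1 file of signal values, which their steps show to be reads divided by a size factor per library. Multiplied by 1 factor per library, 100% of values are whole reads within 0.01 reads, which returned the reads behind them. The tables of Muscle and Heart were used, and those of the other tissues were not.

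Genes with enough reads (filterByExpr of edgeR 4.0.16, minimum count 10) were tested with limma-trend (limma 3.58.1, R 4.3.3) on log2(value + 1), with 1 mean per age over all 16 Muscle libraries. The late change was also set against the change from 6 to 15 months and against that of Heart. Differences between tissues are differences of changes within tables normalised separately. All tests are two-sided, with Benjamini-Hochberg adjustment and a threshold of 0.05. The limma-trend contrast of 30 against 24 months was tried on simulated data in which no library stood apart. The other contrasts and programs were not. Alternatives were edgeR with TMM or RLE and DESeq2 1.42.0 on the recovered reads, limma-voom with quality weights, no filter, a fit of the 2 ages alone, a block for the replicate number, a pseudocount of 0.1 or 5, and each library left out in turn. edgeR and DESeq2 without 30-month replicate 3, and Heart without its 24-month replicate 4, were added after seeing the data. On the recovered reads edgeR called 0 genes and DESeq2 188.

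Members and gene lists (44 lists, 20 panel genes) were chosen with earlier results of these data known. Because no gene passed the threshold, the rule names the 8 genes in each direction with the smallest p among those with no overlap between the ages and a mean of 50 or more reads, without Gm and Rik symbols and immunoglobulin segments. Up to 5 members of each list with the smallest p and the panel genes were open to naming too. Of the genes so named 3 are not reported here. No pair of libraries of an age was a copy (lowest chi-square per degree of freedom 4.06). Genes with near-identical copies, such as Amd1 and Amd2, the Ighg genes and ribosomal proteins with their processed copies, can exchange reads. Promoters come from a RefSeq table of build GRCm38.p6, in which all 4 genes shown were found. Figures were drawn with matplotlib 3.10.9 and tables handled with pandas 2.3.3 in Python 3.11.15.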

Additional observations from a re-analysis of the deposited data

Results flagged for a closer look

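Among 77 genes named in the text, 26 values lay far from the other 3 libraries of their age. The genes were chosen with earlier results of these data known. The count therefore cannot be read against chance, which flags about 5% of groups. Over all tested genes 30-month replicate 3 lay far from the others of its age in 6.34%, and 24-month replicate 4 in 1.85%. Among the 77 genes all 18 such values at 30 months were of replicate 3. It was far above the others for Fbxo32 (25697 normalised reads), Trim63 (25610), Cdkn1a (1797), Sln (1198), Map1lc3a (3224), Gabarap (2881), Ctsl (3961), Eif4ebp1 (2904), Akt1 (1882) and Eda2r (2520). It was far below them for Amd1 (2567 normalised reads), Igfbp5 (1921), Ache (284), Srl (13192), Pfkm (26003), mt-Nd1 (268963), mt-Nd2 (162414) and Kera (24.7).

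At 24 months replicate 4 was far above the others for Cdkn1a (875 normalised reads), Gadd45a (1173), Runx1 (195), Sln (926) and Ppargc1a (977), and far below for Mettl21c (905). Replicate 2 was low for Psmb4 (1257) and replicate 3 high for Psmb3 (1264).

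The change from 24 to 30 months differed from that between 6 and 15 months in 10 genes by the interaction contrast of limma-trend. The differences, late minus early on the log2 scale, were -1.23 for Banp, -0.98 for Bcl2, -0.51 for Diaph1, -2.01 for Gm8734, -0.63 for Hspa5, -1.99 for Ighg2c, -0.45 for Jak1, -0.73 for Jak2, -0.62 for Supt3 and -2.54 for Tmem132b.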

How the results depend on the processing

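The count of genes past the threshold was 0 with all libraries and 0 with edgeR under TMM and RLE, without a filter, with the 2 ages alone and with either pseudocount, while it was 5 with limma-voom and 188 with DESeq2. All 188 kept the sign of limma-trend, and 49 were ribosomal proteins. Leaving out 1 library gave 0 to 11, with 10 without 30-month replicate 3 and 11 without 24-month replicate 4. With 30-month replicate 3 left out, edgeR called 10 and DESeq2 141, of which 120 were among the 188. The cause was not tested.

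Genes whose late change differed from the early one numbered 10, and 4 to 31 when 1 library was left out. The 10 were all among the 24 without 15-month replicate 1, the 18 without 24-month replicate 4 and the 31 without 30-month replicate 3. The count was 4 without 6-month replicate 2 or 24-month replicate 3, 5 without 15-month replicate 2 or 24-month replicate 1, and 6 without 6-month replicate 1 or 4, 24-month replicate 2 or 30-month replicate 2. Bcl2, Gm8734, Ighg2c and Tmem132b were called in each of these. Between Muscle and Heart 0 genes differed, and 0 to 1 when a library was left out, the gene being Gadd45a without 24-month replicate 4 of Muscle and Phka1 without 30-month replicate 1 of Muscle.

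The correlations of same-numbered deviations at 30 and 24 months were 0.11, 0.07, 0.06 and -0.02. The largest just passed 0.1, the limit set for pairing, and the others did not. Whether replicate numbers pair the libraries was left undecided. With the replicate block the count stayed 0 for 30 against 24 months and for Muscle against Heart, and was 4 for late against early.

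Of 636 values of 35 named genes under the alternatives 18 changed sign, in 5 genes far from the threshold. Myog was -0.0078 without 24-month replicate 1 and -0.19 with edgeR and 30-month replicate 3 left out. Chrng was -0.12 with edgeR under TMM, -0.12 under RLE and -0.29 with edgeR and 30-month replicate 3 left out. Ppargc1a was 0.0105 with limma-voom, 0.09 without 24-month replicate 4, 0.10 without 30-month replicate 1, 0.03 without 30-month replicate 3, and with that library left out 0.0551 with edgeR and 0.0503 with DESeq2. C4b was -0.0493 without 24-month replicate 3. Igkc was 0.34 with edgeR under TMM and RLE alike, 0.41 with limma-voom, 0.14 without 24-month replicate 2, 0.77 without 30-month replicate 3 and 0.74 with edgeR and that library left out. Over all single libraries left out the values ran between -0.0078 and 0.88 for Myog, -0.17 and 0.10 for Ppargc1a, -0.0493 and 0.23 for C4b, and -1.32 and 0.77 for Igkc.

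Over 18 of the 44 lists, medians changed sign in 14 of 342 values, in 4 lists near 0 (neuromuscular junction, polyamine metabolism, macrophages, interferon response), and moved by more than the spread between libraries in 5, all of the neuromuscular junction. Over all 44 lists, leaving out 30-month replicate 3 turned the sign of 9 medians, all within 0.17 of 0, plasma and B cells and complement among them, and leaving out 24-month replicate 4 turned 4.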

Other observations

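Car3, carbonic anhydrase of muscle and fat, was chosen after its values were seen. It had 48076, 42485, 35564 and 45233 normalised reads at 30 months, against 30927, 28266, 27169 and 42943 at 24 months. At 15 months its libraries had 23861 to 25723 and at 6 months 27596 to 27740. The fourth 24-month library again lay among the older ones, and without it the change was 0.57 (adjusted p = 0.0216 by limma-trend), against 0.42 ± 0.12 with it (adjusted p = 0.175). Adipoq, a hormone of fat cells, had 262, 322, 120 and 251 normalised reads at 30 months, against 280, 211, 247 and 254 at 24 months.

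Sema3a, a guidance signal for nerves, was likewise chosen after its values were seen. It had 25.6, 30.1, 22.0 and 37.1 normalised reads at 30 months, against 68.1, 71.1, 86.3 and 42.8 at 24 months, with 42.1 to 67.1 at 15 months and 61.6 to 110.0 at 6 months. The change was -1.18 ± 0.23 (adjusted p = 0.131 by limma-trend) and -1.38 without 24-month replicate 4 (adjusted p = 0.0245).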
